A study of Homo sapiens with 7 samples.

Results

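The mitochondrial ribosomal protein genes were taken as the protein-coding genes on chromosomes 1 to 22 whose symbols start with MRPL or MRPS and a digit, together with GADD45GIP1 and DAP3, which are also subunits of the mitochondrial ribosome. Members were chosen by symbol, and the set was selected on its peak positions in these same lists, as known from earlier results. They number 79 of 19122 protein-coding genes, 52 for the large subunit and 27 for the small, with MRPS30 and MRPS18A counted in the large subunit in spite of their symbols. PPARα binding was profiled by chromatin immunoprecipitation and sequencing (ChIP-seq) in HepG2 cells, a hepatocellular carcinoma line. Transfected cells of 3 groups were compared, here called PPARα+ERα, PPARα+ERβ and PPARα.

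PPARα+ERα cells carried expression vectors for PPARα and estrogen receptor α and were given PPT, an ERα-selective agonist, at 10 nM. PPARα+ERβ cells carried vectors for PPARα and estrogen receptor β and were given DPN, an ERβ-selective agonist, at 10 nM. Cells of the PPARα group carried the PPARα vector only. Every group received the PPARα agonist WY14643 (spelled both Wy13643 and Wy14643 in the labels) at 10 µM for 2 h, after 45 min of PPT or DPN where these were given, from 48 h after transfection. PPARα was therefore introduced by a vector and its agonist present in all 3 groups, receptor and estrogen agonist changed together, and no group lacked PPARα or WY14643. Each group had 2 libraries. Nothing in the labels says that they came from separate cultures, so differences between them may be technical. A further sample without antibody was not analysed here. The files hold peaks and no expression, so HepG2 identity was not checked against marker genes.

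PPARα is a fatty-acid-sensing nuclear receptor that pairs with RXR and drives genes of fatty acid oxidation in liver. The products of that pathway are burned by a respiratory chain whose mitochondrially encoded subunits are made on the mitochondrial ribosome. All proteins of that ribosome are encoded in the nucleus, translated in the cytosol and imported, and their promoters mostly lie in CpG-rich stretches and are known for sites of general factors such as NRF1, GABP and YY1.

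The 4 promoters below are shown because peaks overlapped them: GADD45GIP1 with either estrogen receptor, MRPL42 with ERβ or PPARα alone, and MRPL30 and MRPL4 with ERα. They come from RefSeq (GRCh38.p14), run from 250 bases before the transcription start to 50 after it, and are written 5′ to 3′ on the gene's strand. Capitals mark the bases inside the peaks of every library with a peak there, and the MRPL4 peak covers its whole window.
GADD45GIP1, chr19:12957174-12957473, minus strand: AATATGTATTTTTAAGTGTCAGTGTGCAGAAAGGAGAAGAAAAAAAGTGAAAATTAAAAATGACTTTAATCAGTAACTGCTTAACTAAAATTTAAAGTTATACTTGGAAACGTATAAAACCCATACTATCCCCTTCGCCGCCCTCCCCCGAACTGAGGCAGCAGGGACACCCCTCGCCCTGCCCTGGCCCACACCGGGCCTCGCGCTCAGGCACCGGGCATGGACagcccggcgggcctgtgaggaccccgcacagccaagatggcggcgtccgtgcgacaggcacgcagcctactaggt
MRPL42, chr12:93467264-93467563, plus strand: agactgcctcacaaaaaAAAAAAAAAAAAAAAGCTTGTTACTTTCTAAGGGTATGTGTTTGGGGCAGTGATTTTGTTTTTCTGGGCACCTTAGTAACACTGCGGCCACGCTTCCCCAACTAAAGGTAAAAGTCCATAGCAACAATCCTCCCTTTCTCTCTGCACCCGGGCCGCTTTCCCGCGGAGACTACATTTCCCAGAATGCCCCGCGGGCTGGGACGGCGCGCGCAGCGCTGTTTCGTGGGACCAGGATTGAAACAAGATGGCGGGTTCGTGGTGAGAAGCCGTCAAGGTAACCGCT
MRPL30, chr2:99180934-99181233, plus strand: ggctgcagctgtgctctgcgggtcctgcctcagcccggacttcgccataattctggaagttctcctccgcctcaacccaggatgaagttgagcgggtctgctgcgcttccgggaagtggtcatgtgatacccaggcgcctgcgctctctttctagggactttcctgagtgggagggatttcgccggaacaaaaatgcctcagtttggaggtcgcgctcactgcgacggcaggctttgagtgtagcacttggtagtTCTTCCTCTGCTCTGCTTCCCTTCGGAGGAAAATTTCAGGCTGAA
MRPL4, chr19:10251701-10252000, plus strand: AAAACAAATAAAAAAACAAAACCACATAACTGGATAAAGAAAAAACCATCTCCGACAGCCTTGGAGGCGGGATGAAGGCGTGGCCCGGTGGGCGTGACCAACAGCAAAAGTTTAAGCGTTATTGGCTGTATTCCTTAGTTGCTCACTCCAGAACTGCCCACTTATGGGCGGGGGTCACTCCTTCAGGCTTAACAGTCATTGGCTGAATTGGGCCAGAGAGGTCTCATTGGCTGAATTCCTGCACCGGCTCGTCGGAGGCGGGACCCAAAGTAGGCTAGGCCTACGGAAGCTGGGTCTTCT

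In the GADD45GIP1 stretch the capitals run from position -250 to -26, where the start base is 0. They were in peaks of 4 libraries. Of the summits, only that of PPARα+ERα library 2 fell in the printed stretch. In MRPL42 they run from -233 to 49 and were in peaks of 3 libraries. The 45 capitals of MRPL30, 5 to 49, are the edge of a peak in PPARα+ERα library 2 whose summit lay farther into the gene, and the peak of PPARα+ERα library 1 began beyond the printed stretch. MRPL4 was covered in PPARα+ERα library 2 only.

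Counts of members rest on a simple call. A gene had a peak in a library when a summit, the position of highest enrichment of a deposited peak, fell in the gene's RefSeq span or within 3 kb of its ends. It was called in a group when both libraries had such a peak, and it differed between 2 groups when both libraries of one and neither of the other had a peak. A call by place asked for peaks that overlap in both libraries, a shared site. Within a group this call is the stricter. For a difference, the other group had to lack a peak at that site only, not in the whole window, so that count can be larger. Because of how the set was selected, its counts describe and do not test. With 2 libraries against 2, an exact two-sided permutation test cannot give a p below 0.33, and no p-value is reported.

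Lists held 24145 and 27180 peaks on chromosomes 1 to 22 for PPARα+ERα, 17032 and 22697 for PPARα+ERβ, and 23182 and 35229 for PPARα. The files give no read totals. Fragment numbers recovered from each peak's fold and p show that the lists differ in kind. A median peak stood on 9 and 10 fragments in the PPARα+ERα libraries, 27 and 30 in PPARα+ERβ, and 36 and 51 in PPARα. The local background under a median peak, relative to the lowest of its list, was 1.64 and 1.57 in PPARα+ERα, 9.89 and 8.52 in PPARα+ERβ, and 13.5 and 16.9 in PPARα. PPARα+ERα peaks were thus small stacks in quiet stretches, while peaks of the other groups were larger stacks where background was also high. How far this sets the differences between groups was not tested. A site missing from a list had no called peak, and its fragment number is unknown.

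Peaks at mitochondrial ribosomal protein genes were no more frequent per gene than at genes in general. Of 79 members, 46 had a peak in any library (58.2%, against 65.2% of all genes) and 33 had none. Both libraries had a peak at 14 members in PPARα+ERα (17.7%, where 25.4% of all genes were called), at 9 in PPARα+ERβ (11.4%, all genes 24.6%) and at 16 in PPARα (20.3%, all genes 30.6%). All 3 shares lay below those of all genes. At a shared site the counts were 7 in PPARα+ERα (8.86%, all genes 17.8%), 9 in PPARα+ERβ (11.4%, all genes 21.0%) and 12 in PPARα (15.2%, all genes 28.2%). Shared sites made up 50.0% of the members called in PPARα+ERα, 100% of those in PPARα+ERβ and 75% of those in PPARα, against 69.8%, 85.4% and 92.2% for all genes called in the same groups.

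Single libraries of a group gave unequal numbers. A peak was present at 20 and 28 members in the PPARα+ERα libraries (25.3% and 35.4%, all genes 34.8% and 37.5%). PPARα+ERβ libraries had 14 and 14 (17.7% each, all genes 29.9% and 36.4%). PPARα libraries had 19 and 26 (24.1% and 32.9%, all genes 33.7% and 45.1%). A call therefore loosened when it rested on a single library. Without PPARα+ERα library 1 the 14 members of that group became 28. Without PPARα library 1 the 16 became 26, and without either PPARα+ERβ library the 9 became 14. These are the single-library counts above.

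**Figure D1:**
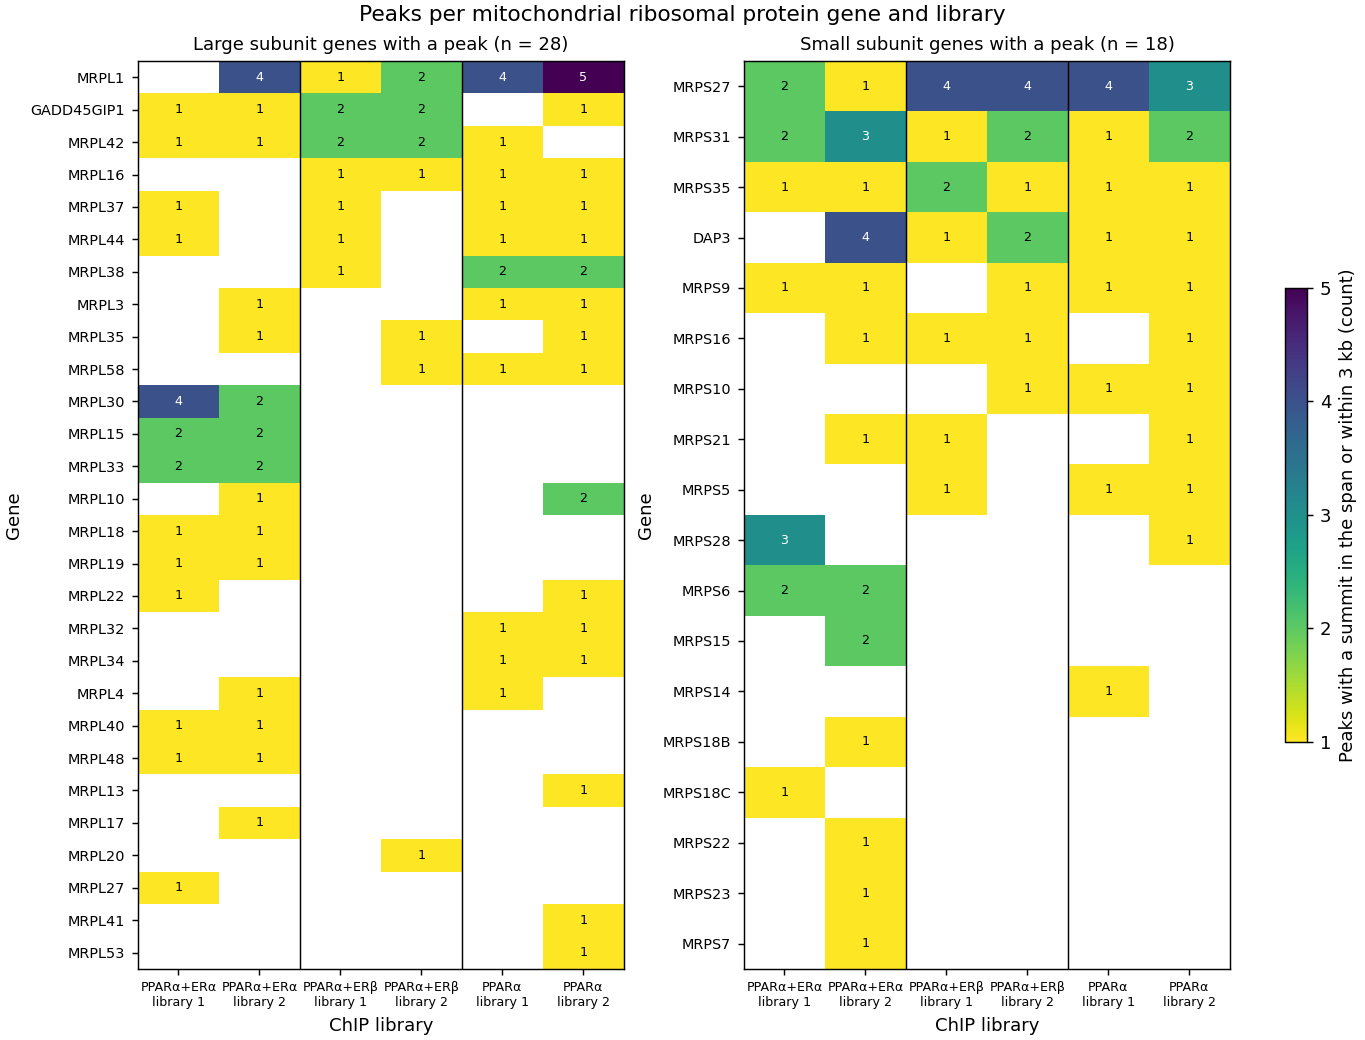
Peaks per gene (rows) and library (columns) for the 46 mitochondrial ribosomal protein genes with a peak, large subunit at left and small subunit at right. Numbers and colour give peaks in the span or within 3 kb, white is none, and MRPS27, MRPS31 and MRPS35 are the 3 rows filled in all 6 libraries.

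Genes of both subunits were among those with peaks. For the large subunit 28 of 52 genes had a peak in any library (53.8%), and for the small subunit 18 of 27 (66.7%), whose genes also have the longer spans (medians of 12343 bp, against 8060 bp for the large subunit). Of the 52 large subunit genes, 9 were called in PPARα+ERα, 4 in PPARα+ERβ and 9 in PPARα. Of the 27 small subunit genes, 5, 5 and 7 were called in the same order, where 25.4%, 24.6% and 30.6% of all genes were. MRPS27, a small subunit protein with pentatricopeptide repeats, MRPS31 and MRPS35 had a peak in all 6 libraries, which 11.9% of all genes did. A further 6 members were called in exactly 2 groups, 18 in exactly 1 and 19 had peaks but were called in no group. Over all genes these classes were not counted separately. In at least 1 group 27 members were called (34.2%, all genes 43.4%). Among the 33 members without a peak were MRPL12, which is known to bind the mitochondrial RNA polymerase, MRPS12 of the decoding centre, and MRPS34.

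Gene length went with the presence of a peak. Members are short, with a median span of 8618 bp against 24490 bp for all genes, and those with any peak had a median of 13210 bp against 5189 bp for those with none. Among the 14 members over 30 kb, 7 were called in PPARα+ERα (50.0%, genes of that length 47.1%), 6 in PPARα+ERβ (42.9%, genes 44.8%) and 8 in PPARα (57.1%, genes 54.1%). Long members were therefore called about as often as long genes in general. Of the 42 members under 10 kb, 4 were called in PPARα+ERα (9.52%, genes 4.19%), 3 in PPARα+ERβ (7.14%, genes 4.77%) and 4 in PPARα (9.52%, genes 6.54%). Between 10 and 30 kb the counts of 23 members were 3 in PPARα+ERα (13%, genes 12%), 0 in PPARα+ERβ (genes 12%) and 4 in PPARα (17.4%, genes 17.0%). The low share over all members thus stands beside their short spans, and within a length class only PPARα+ERβ at 10 to 30 kb and, by under 2 percentage points, over 30 kb lay below the genes of that class.

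**Figure D2:**
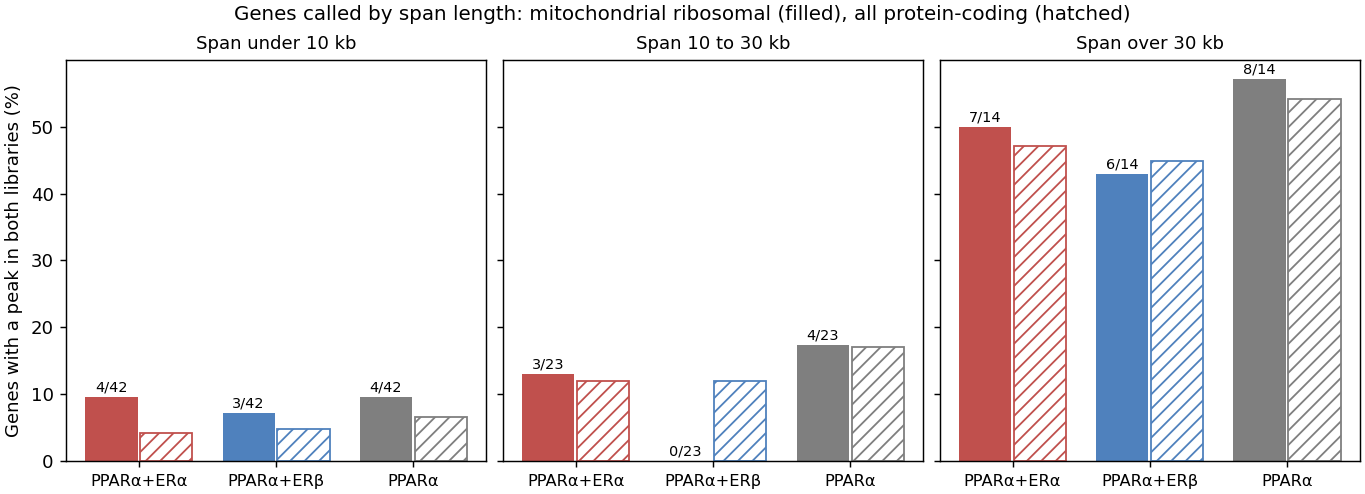
Share of genes called in a group (y axis, %) in 3 classes of gene span, for mitochondrial ribosomal protein genes (filled) and all protein-coding genes (hatched); fractions give members called over members. Shares rise with span in both sets, up to 8 of 14 members over 30 kb with PPARα.

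Per length of sequence the order was turned round. The windows of all members cover 1.946 Mb, and held 30 and 41 peaks in PPARα+ERα, 20 and 22 in PPARα+ERβ, and 26 and 35 in PPARα. That is 18.2 ± 4.03 peaks per Mb in PPARα+ERα, 10.8 ± 0.707 in PPARα+ERβ and 15.7 ± 3.25 in PPARα (SD, n = 2 libraries each). Windows of all genes held 10.8 ± 0.919, 8.54 ± 1.72 and 12 ± 3.75 peaks per Mb. In each of the 6 libraries the density at members was above that at all genes, least so in PPARα+ERβ library 2 (11.3 against 9.75 peaks per Mb) and most in PPARα+ERα library 2 (21.1 against 11.4). By length class this did not hold throughout: at 10 to 30 kb, members had fewer peaks per Mb than genes of that length in PPARα+ERβ library 1 (5.81 against 7.74), PPARα+ERβ library 2 (3.87 against 11.8) and PPARα library 2 (13.6 against 16.4). The 3 groups cannot be ordered by their density at members beyond the spread, apart from PPARα+ERβ, whose libraries (10.3 and 11.3) lay below those of PPARα+ERα (15.4 and 21.1) and PPARα (13.4 and 18.0). Over all genes the PPARα+ERβ densities (7.32 and 9.75) were also below those of PPARα+ERα (10.1 and 11.4), but overlapped those of PPARα (9.39 and 14.7).

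**Figure D3:**
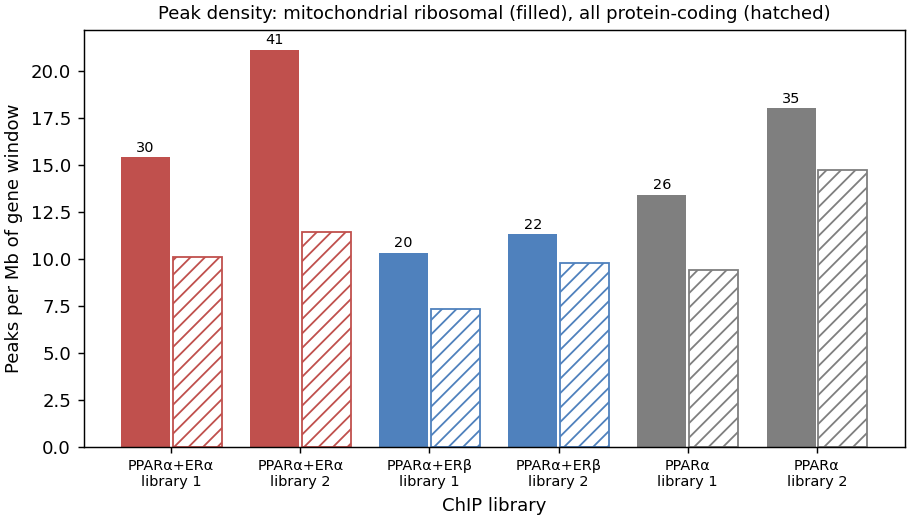
Peaks per Mb of gene window (y axis) in each library, at mitochondrial ribosomal protein genes (filled, with the number of peaks above) and at all protein-coding genes (hatched). The filled bar is the higher in all 6 libraries, from 10.3 to 21.1 per Mb.

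Peaks of members lay close to gene ends about as often as the shape of their windows gives. Within 3 kb of an end were 50.0% and 46.3% of member peaks in PPARα+ERα, 50.0% and 54.5% in PPARα+ERβ, and 50.0% and 45.7% in PPARα, where such stretches make up 44.9% of the members' windows. For all genes the corresponding area is 14.7% and the shares ranged from 13.7% to 16.0%. Few peaks were at the start itself. Within 1 kb of a transcription start there were 2 and 4 member peaks in PPARα+ERα, 4 and 3 in PPARα+ERβ, and 1 and 1 in PPARα, or 6.67%, 9.76%, 20.0%, 13.6%, 3.85% and 2.86% of the peaks of each library, where 7.22% of the windows lies that near. The PPARα+ERβ shares were above that area share and the PPARα shares below it, on 1 to 4 peaks each. Over all genes the PPARα lists were low as well, with 1.56% and 1.51% of peaks within 1 kb of a start, against 2.1% to 2.23% in the other lists and an area share of 2.19%.

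GADD45GIP1, also known as CRIF1 and a large subunit protein near the exit of the nascent chain, had the promoter site with the most libraries. At chr19:12957187-12957580, with summits 240 to 328 bases before the start, the peak had 60 and 56 fragments in PPARα+ERα over backgrounds of 7.01 and 10.2, and 53 and 75 fragments in PPARα+ERβ over 9.40 and 15.5. Neither PPARα library had a peak there. PPARα+ERα libraries had deposited folds of 7.61 and 5.07 at this site, and PPARα+ERβ libraries had 5.19 and 4.59. By −log10 q this peak ranked at the 99.9 and 98.6 percentiles of the PPARα+ERα lists and at 94.1 and 95.8 in PPARα+ERβ, so all 4 libraries had it among their strongest peaks. No other member site had a peak in all 4 libraries of the estrogen receptor groups and in neither PPARα library. Farther upstream, at chr19:12957915-12958290, PPARα+ERβ had 53 and 62 fragments (folds 3.34 and 3.29), PPARα library 2 had 53 fragments (fold 2.73), and neither PPARα+ERα library nor PPARα library 1 had a peak.

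MRPL30, whose bacterial counterpart is a large subunit protein, held the strongest member peak of both PPARα+ERα lists. At chr2:99181189-99181618, with the summit 282 bases into the gene and in both libraries at the same base, 38 and 46 fragments stood over backgrounds of 1.53 and 1.64, and no peak was called in PPARα+ERβ or PPARα. The folds were 15.4 and 17.8, at the 99.9 and 100 percentiles of −log10 q. MITD1, a neighbouring gene, also lies within 3 kb, so the peak cannot be given to MRPL30 alone. A weaker PPARα+ERα peak inside MRPL30, at chr2:99190674-99191024, had 13 and 21 fragments (folds 5.97 and 9.0).

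The remaining sites with both PPARα+ERα libraries and no PPARα library stood on few fragments. MRPL33 had 7 and 10 fragments at chr2:27775056-27775369 (folds 5.76 and 7.75) and 8 and 7 at chr2:27777009-27777386 (folds 6.48 and 5.20). MRPL15 had 9 and 9 fragments at chr8:54146450-54146812 (folds 7.19 and 7.05) and 12 and 7 at chr8:54149019-54149699 (folds 9.35 and 5.64). Both proteins have bacterial counterparts in the large subunit, and none of these sites was called in PPARα+ERβ or PPARα. MRPS6, of the small subunit, had 13 and 13 fragments inside the gene at chr21:34110487-34110862 (folds 6.99 and 6.74). MRPS31 had 16 and 12 at chr13:40731254-40731741 (folds 3.77 and 3.07), near the far end of the gene. There were 9 such sites at 6 members (7.59%, all genes 17.2%). Over these sites the background was at a median of 2.57 times the lowest of the list, and the number of fragments ran from 7 to 60.

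PPARα showed the reverse picture, with more sites and larger stacks. In both PPARα libraries and neither PPARα+ERα library there were 15 sites at 12 members (15.2%, all genes 27.2%). They had 12 to 131 fragments and a median background 23.1 times the lowest of the list. MRPS5, a small subunit protein, had the largest stack, 98 and 131 fragments at chr2:95115586-95115923 over backgrounds of 34.6 and 40.1 (folds 2.78 and 3.21). PPARα+ERβ library 1 also had a peak there, with 76 fragments (fold 2.11). MRPL58, the peptidyl-tRNA hydrolase that is built into the large subunit, had 59 and 101 fragments in PPARα at chr17:75010689-75011073, about 1858 bases before its start (folds 3.28 and 4.95), and no peak in the other groups at that place. MRPL37 had 65 and 90 fragments at chr1:54226364-54226682 (folds 3.01 and 3.68), and this place lies beyond the end of MRPL37 in the span of SSBP3. MRPL32 had 44 and 69 at chr7:42937953-42938346, just past the end of the gene (folds 2.67 and 3.69). MRPL37, MRPL32, MRPL58 and MRPL38 are the 4 members with a site in both PPARα libraries and in neither PPARα+ERβ library (5.06%, all genes 10.9%).

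MRPL38 had 2 sites upstream of its start, close to FBF1 as well. At chr17:75906326-75906804 the PPARα libraries had 67 and 112 fragments (folds 2.82 and 4.04) and PPARα+ERβ library 1 had 57 (fold 2.55). Another site, at chr17:75907460-75907889, had only 12 and 14 fragments in PPARα over backgrounds of 1.23 and 1.41 (folds 5.82 and 6.22), a low background of the kind seen in the PPARα+ERα lists. MRPL44, a large subunit protein with an RNase III-like fold, had a site 727 bases before the beginning of its span, at chr2:223949929-223950271, with 19 fragments in PPARα+ERβ library 1 (fold 5.05) and 20 and 21 in PPARα (folds 5.29 and 5.00). MRPS9 had 37 fragments in PPARα+ERβ library 2 (fold 2.18) and 54 and 64 in PPARα (folds 3.74 and 3.93) at chr2:105095078-105095513. MRPS10 had 11 in PPARα+ERβ library 2 (fold 3.34) and 15 and 22 in PPARα (folds 5.06 and 6.66) at chr6:42219177-42219593, about 1418 bases before its start. These 4 genes, with MRPS5, had PPARα sites at which a single PPARα+ERβ library also had a peak.

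Sites common to PPARα+ERβ and PPARα numbered 5, and all 5 were without a peak in either PPARα+ERα library. Such a lack was general: 28.2% of all genes had a shared PPARα site, and 27.2% had one without a PPARα+ERα peak. DAP3, the GTP-binding small subunit protein also known as death-associated protein 3, had 14 and 17 fragments in PPARα+ERβ and 21 and 26 in PPARα at chr1:155715204-155715623, some 26294 bases into the gene. The folds were 7.85 and 8.56 in PPARα+ERβ and 11.5 and 13.2 in PPARα, over backgrounds of only 0.911 to 1.10. Start and summit fell on the same base in all 4 libraries. PPARα+ERα library 2 had 4 peaks elsewhere in DAP3 and PPARα+ERα library 1 had none. In PPARα+ERβ library 2 alone, DAP3 also had 100 fragments over a background of 22.5 at chr1:155728860-155729241 (fold 4.31, the 98.3 percentile). That was the highest-ranked member peak of PPARα+ERβ library 2. MRPL16, a large subunit protein, had 30 and 33 fragments in PPARα+ERβ and 34 and 54 in PPARα at chr11:59805177-59805663 (folds 5.80 and 5.50, against 6.57 and 10.8), in the span of the neighbouring gene STX3. This was the highest-ranked member peak of PPARα library 2. MRPL1, of the mobile stalk of the large subunit, had 28 and 40 in PPARα+ERβ and 43 and 69 in PPARα at chr4:77895643-77896164 (folds 2.45 and 2.94, against 3.72 and 5.28). A further MRPL1 site, chr4:77873604-77874016, had 50 fragments in PPARα+ERβ library 2 (fold 2.67) and 57 and 79 in PPARα (folds 3.59 and 4.40).

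MRPS27 held the other 2 of these sites and also a site with PPARα+ERα. At chr5:72278443-72278795 it had 29 and 28 fragments in PPARα+ERβ (folds 7.70 and 5.45) and 22 and 35 in PPARα (folds 4.32 and 8.43). At chr5:72318789-72319552, near its own start and close to PTCD2, it had 46 and 53 in PPARα+ERβ (folds 3.19 and 2.39) and 50 and 58 in PPARα (folds 2.41 and 2.75). The site with the most libraries, chr5:72284248-72284695, had 12 and 8 fragments in PPARα+ERα (folds 8.73 and 5.90), 17 and 21 in PPARα+ERβ (folds 10.4 and 11.7) and 12 in PPARα library 1 (fold 7.51). PPARα library 2, the list with the most peaks, had none there. MRPS31 had the other site of 5 libraries, chr13:40760142-40760646, with 14 and 14 fragments in PPARα+ERα, 18 and 35 in PPARα+ERβ and 23 in PPARα library 2. No member site was called in all 6 libraries.

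MRPL42, MRPS16 and MRPS35 had sites in both PPARα+ERβ libraries and a single PPARα library. MRPL42, a large subunit protein without a bacterial counterpart, had 41 and 44 fragments in PPARα+ERβ at chr12:93467281-93467640 (folds 9.10 and 8.46, the 97.9 and 97.0 percentiles) and 28 in PPARα library 1 (fold 6.29). The summit was the same base in all 3 libraries, 161 before the start and inside the printed promoter, and it was the strongest member peak of PPARα+ERβ library 1. Both PPARα+ERα libraries had a peak in MRPL42, but elsewhere in the gene and at different places, with 8 and 9 fragments. MRPS16 had 43 and 45 fragments in PPARα+ERβ (folds 4.55 and 4.05) and 68 in PPARα library 2 (fold 6.38) at chr10:73250220-73250640, where the noncoding gene DNAJC9-AS1 overlaps it. MRPS35 had 32 and 39 in PPARα+ERβ (folds 6.18 and 3.81) and 28 in PPARα library 1 (fold 5.44) at chr12:27725469-27725813.

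**Figure D4:**
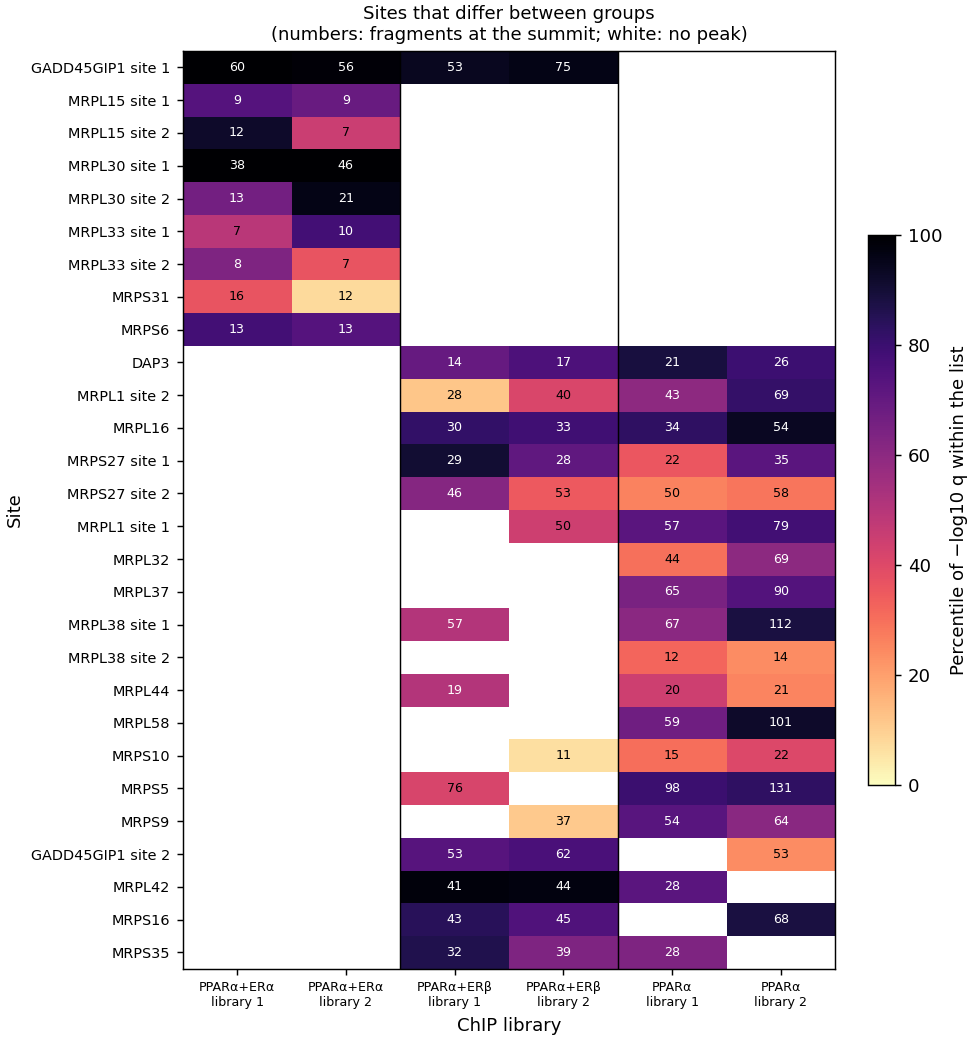
The 28 sites of mitochondrial ribosomal protein genes that both libraries of some group had and both of another lacked (rows), by library (columns). Numbers are fragments at the summit, colour is the percentile of −log10 q within the list and white is no peak. The 9 rows with PPARα+ERα peaks are empty in PPARα, and in PPARα+ERβ too apart from GADD45GIP1. Over all genes, 17.8% had a shared PPARα+ERα site and 17.2% had one without a PPARα peak.

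The count of members that differed depended on whether the same place was required. In PPARα+ERα against PPARα, 8 members had a peak in both PPARα+ERα libraries and neither PPARα library (10.1%, where 5.39% of all genes did), and 7 the reverse (8.86%, all genes 7.78%). The 8 were MRPL33, MRPL19, MRPL30, MRPL18, MRPL15, MRPL48, MRPS6 and MRPL40, and the 7 were MRPS5, MRPS10, MRPL32, MRPL16, MRPL58, MRPL38 and MRPL34. At a shared site, 6 members had a PPARα+ERα site without a PPARα peak there (7.59%, all genes 17.2%). The reverse held for 12 (15.2%, all genes 27.2%). The larger count thus changed side under a different rule. Peaks of the other group elsewhere in the gene no longer counted, and members whose own 2 libraries shared no site dropped out. In the latter way MRPL19, MRPL18, MRPL48 and MRPL40 left the 8, and MRPL34 left the 7. Of the 12, DAP3, MRPL1, MRPL37, MRPL44, MRPS9 and MRPS27 had PPARα+ERα peaks elsewhere. Of the 6, GADD45GIP1 and MRPS31 had PPARα peaks elsewhere. By place, both shares at members were below those at all genes. Here and in the other comparisons of groups, shares were not split by length class. Members have the shorter spans, so a lower share cannot be told apart from their length. Without PPARα+ERα library 1 the 8 became 14, and no other single library moved either count by over 1.5 times. Restricted to peaks whose background was at most 3 times the lowest of the list, 7 members had a peak in both PPARα+ERα libraries and no PPARα library (all genes 13.8%) and 1 had the reverse (all genes 1.51%).

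Part of the gene-level count came from peaks at different places. MRPL19, MRPS9, MRPL18, MRPL48, MRPS35, MRPL42 and MRPL40 were called in PPARα+ERα without a shared site, their closest summits of the 2 libraries being 4141 to 16152 bases apart. At MRPL40, for example, the peak had 16 fragments in PPARα+ERα library 1 (fold 12.2) and 4 in PPARα+ERα library 2 (fold 3.52), 4397 bases away. MRPL3, MRPS35, MRPS31 and MRPL34 were called in this manner in PPARα, with summits 3175 to 15114 bases apart.

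In PPARα+ERβ against PPARα few members differed. No member was called with PPARα+ERβ and had no PPARα peak (all genes 1.09%), and 3 had the reverse (3.8%, all genes 3.2%): MRPL3, MRPL32 and MRPL34. At a shared site the numbers were 1, GADD45GIP1 (1.27%, all genes 4.37%), and 4 (5.06%, all genes 10.9%). The count of 3 rested on all 4 libraries and became 7 and 6 without PPARα+ERβ library 1 and 2, and 9 and 5 without PPARα library 1 and 2. The count of 0 became 1 without PPARα+ERβ library 1, 1 without PPARα library 1 and 2 without PPARα library 2.

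In PPARα+ERα against PPARα+ERβ, 8 members were called with ERα and had no ERβ peak (10.1%, all genes 6.4%), by name the 8 listed against PPARα. Since both comparisons use the same PPARα+ERα libraries, this is not a separate result. MRPL16 alone was called with ERβ and had no ERα peak (1.27%, all genes 5.19%). At a shared site 5 members had an ERα site without an ERβ peak there (6.33%, all genes 16.5%). The reverse held for 8 (10.1%, all genes 19.0%), so here too the larger count changed side under the rule by place. The 5 were MRPL15, MRPL30, MRPL33, MRPS31 and MRPS6. The 8 were DAP3, GADD45GIP1, MRPL1, MRPL16, MRPL42, MRPS16, MRPS27 and MRPS35. Without PPARα+ERα library 1 the count of 8 at gene level became 17, and the count of 1 became 4 without PPARα+ERα library 2 or PPARα+ERβ library 1, and 3 without PPARα+ERβ library 2.

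**Figure D5:**
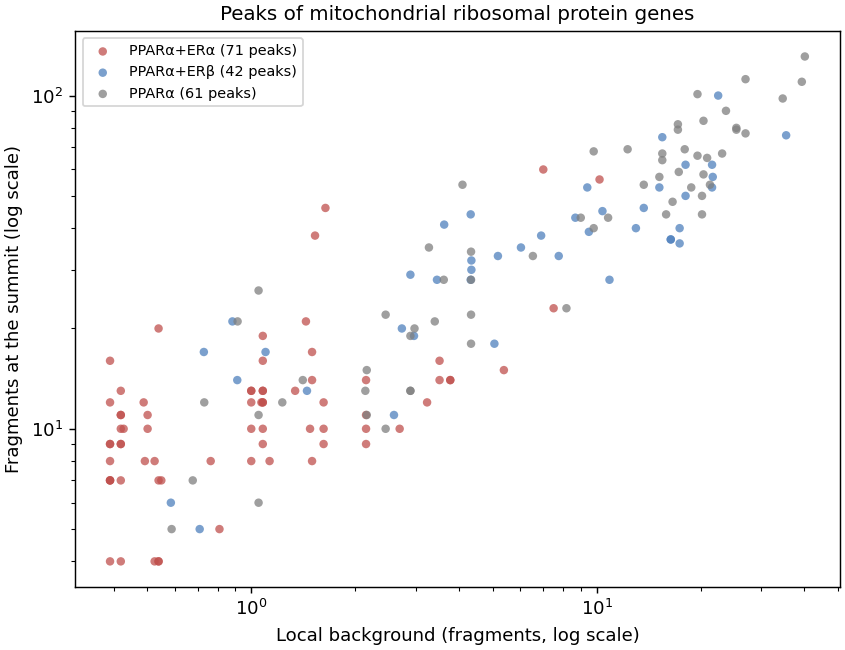
Fragments at the summit (y axis, log scale) against local background in fragments (x axis, log scale) for the 174 peaks of mitochondrial ribosomal protein genes; each point is a peak, coloured by group. PPARα+ERα peaks fill the lower left, between 4 and 60 fragments, and PPARα peaks reach 131 fragments at the upper right.

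Peaks at members carried the same contrast in background as the whole lists. At members the median background relative to the lowest of the list was 2.32 and 2.57 in PPARα+ERα, 8.04 and 12.2 in PPARα+ERβ, and 7.36 and 22.9 in PPARα. Median stacks were 11.5 and 10 fragments in PPARα+ERα, 31 and 37.5 in PPARα+ERβ, and 28 and 58 in PPARα. Peaks at up to 3 times the lowest background made up 70.0% and 61.0% of member peaks in PPARα+ERα, 20.0% and 13.6% in PPARα+ERβ, and 15.4% and 14.3% in PPARα. The PPARα+ERα libraries did not overlap the others in any of these measures.

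Promoter letters were searched in the 71 members that the promoter table holds, on both strands, and in 15100 promoters of all genes. No member held the PPAR-RXR element, searched as AGGTCA repeated after a gap of 1 base, which 0.0199% of all promoters held. None held the estrogen response element, searched as GGTCA and TGACC with 3 bases between them (0.0397% of all). The half-site AGGTCA by itself, which any copy of the PPAR-RXR element also holds, was in 11 members (15.5%, all 11.7%). The GABP-type letters CCGGAAG were in 29 members (40.8%, all 14.4%) and the YY1-type letters AANATGGC, which can also be the start codon's surroundings, in 26 (36.6%, all 7.91%). Members thus held these letters more often than promoters at large. GC boxes, GGGCGG, were in 44 (62.0%, all 58.9%), CCAAT in 20 (28.2%, all 36.0%), CACGTG in 6 (8.45%, all 8.77%), and the NRF1 palindrome, GCGCA followed directly by TGCGC, in MRPL17 only (1.41%, all 1.77%). Member promoters had a median GC content of 60.3% against 63.0%, and 24 CpG against 22. In the printed promoters, GADD45GIP1 and MRPL42 both have AAGATGGC at positions 8 to 15. For MRPL42 these letters lie inside the peaks. For GADD45GIP1 they lie outside the capitals, but inside the peak of PPARα+ERα library 1, which reaches farther into the gene. GADD45GIP1 also has a GC box on the opposite strand at -113 to -108, inside the peaks. MRPL30 has the GABP-type letters on the opposite strand at -145 to -139, outside the peak. MRPL4 has a GC box at -85 to -80 and 4 CCAAT boxes on the opposite strand, all inside its peak of 20 fragments (fold 13.6, summit 192 before the start). A match of letters is a description only.

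Promoters were rarely overlapped by a peak. Of the 71 member promoters, 1 and 3 were overlapped in PPARα+ERα (1.41% and 4.23%), 2 by each PPARα+ERβ library (2.82%), and 1 and 0 in PPARα (1.41% and 0%). Of all promoters 0.331% to 0.609% were, by library, so the member share was the higher in 5 of 6 libraries, on 1 to 3 promoters each. These overlaps all fell on GADD45GIP1, MRPL42, MRPL30 and MRPL4.

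Chromosome 2 holds 8 members, and 4 of them were called in PPARα+ERα, 0 in PPARα+ERβ and 3 in PPARα. MRPL33, MRPL19, MRPL30 and MRPS9 made up the PPARα+ERα count, and MRPS5, MRPS9 and MRPL44 the PPARα count. Of the 1254 genes of this chromosome 41.1%, 37.2% and 42.0% were called in the same order of groups. The choice of chromosome 2 followed no stated rule, and its counts only describe it. Chromosomes 1 and 17 did not show this order. On chromosome 17, MRPL58 and MRPL38 were called in PPARα and no member in the other groups. On chromosome 1, MRPL37 and DAP3 were called in PPARα, DAP3 also in PPARα+ERβ, and no member in PPARα+ERα. The shares of all genes called on chromosomes 1 and 17 were not counted, so these counts have no background to stand against.

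Genes that work beside the ribosomal proteins were examined as 4 lists, 66 genes in all: other proteins of the mitochondrial ribosome, translation factors, enzymes that charge mitochondrial tRNA, and assembly factors. Of these, 14 were called in PPARα+ERα (21.2%), 15 in PPARα+ERβ (22.7%) and 20 in PPARα (30.3%), each below or near the share of all genes given above. By gene, 4 were called in PPARα+ERα without a PPARα peak (6.06%, all genes 5.39%) and 3 the reverse (4.55%, all genes 7.78%). At a shared site the counts were 12 (18.2%, all genes 17.2%) and 18 (27.3%, all genes 27.2%), close to the background. The tRNA-charging list had 6, 6 and 9 of 23 genes called (26.1%, 26.1% and 39.1%), and the assembly list 4, 4 and 7 of 25 (16.0%, 16.0% and 28.0%). The translation factors had 3, 5 and 4 of 15 (20.0%, 33.3% and 26.7%), and the other ribosomal proteins 1, 0 and 0 of 3 (33.3%, 0% and 0%). With 25.4%, 24.6% and 30.6% of all genes called, the single lists lay on both sides of the background. GFM1, the elongation factor that moves the ribosome along its mRNA, had a site at chr3:158659905-158660263 with 47 and 50 fragments in PPARα+ERβ (folds 6.51 and 5.85) and 60 and 93 in PPARα (folds 8.25 and 11.3), and none in PPARα+ERα at that place. MTRF1, a release factor, had 63 and 80 in PPARα+ERβ and 76 and 107 in PPARα at chr13:41294418-41294769, again with none in PPARα+ERα there. Both genes also had PPARα+ERα sites elsewhere, GFM1 with 13 and 12 fragments at chr3:158686239-158686736 and MTRF1 with 8 and 12 at chr13:41307614-41307943. The GFM1 site was without a PPARα peak and the MTRF1 site without a PPARα+ERβ peak. RARS2 charges the arginine tRNA and OXA1L inserts nascent chains into the inner membrane. RARS2 had 17 and 11 fragments in PPARα+ERα at chr6:87583589-87583960 (folds 13 and 8.46), and OXA1L 19 and 14 at chr14:22772324-22772743 (folds 9.99 and 7.22). Neither place had a peak of the other groups. Of the tRNA-charging list, FARS2 and NARS2 had sites that ranked higher within their lists than that of RARS2. FARS2 had 24 and 30 fragments in PPARα+ERβ at chr6:5446203-5446605 (folds 9.31 and 10.2). NARS2 had 48 and 59 in PPARα at chr11:78444727-78445073 (folds 6.24 and 6.79). Neither site had a PPARα+ERα peak. Elsewhere, FARS2 had sites in both PPARα+ERα libraries and no library of the other groups. They held 8 and 16 fragments at chr6:5256516-5256875 and 10 and 10 at chr6:5473543-5473872. METTL15, which methylates the small subunit rRNA, likewise had sites of both kinds: 52 and 58 fragments in PPARα+ERβ and 63 and 73 in PPARα at chr11:28160670-28161122, and 14 and 13 in PPARα+ERα at chr11:28343216-28343578. PTCD3, a small subunit protein outside the symbol rule, had 16 and 16 in PPARα+ERα at chr2:86108130-86108471 (folds 5.66 and 5.39).

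For comparison, 10 of 73 cytosolic ribosomal protein genes were called in PPARα+ERα, 8 in PPARα+ERβ and 10 in PPARα (13.7%, 11% and 13.7%). Of 83 respiratory chain and ATP synthase genes, 12, 7 and 18 were called in the same order (14.5%, 8.43% and 21.7%). The difference between these sets and the mitochondrial ribosomal genes was not tested.

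The 3 kb limit of the window placed a few peaks just inside or outside. Just inside lay MRPL38 in PPARα library 2, 2853 bases beyond the span with 14 fragments, and MRPL19 in PPARα+ERα library 1, 2838 bases beyond it with 12. Just outside lay MRPL48 in PPARα+ERβ library 2, at 3058 bases with 44 fragments, and MRPL2, at 3547 bases in PPARα+ERβ library 2 with 38 fragments (fold 10.9) and 3548 in PPARα library 1 with 21 (fold 6.95).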

How the data were processed

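Per the labels, chromatin was formaldehyde-crosslinked, cut with a nuclease and by sonication, then immunoprecipitated with anti-PPARα for DNA libraries. The submitters' processing notes name MACS2 2.2.7.1, a peak caller, Bowtie 1.0.1, an aligner, Trim Galore 0.6.4, DiffBind 2.16, ChIPseeker 1.18.0 and HOMER 4.11, with GRCh38.p13 and hg38 as builds. Roles, settings and the control are not given in the sources used here. The deposited lists hold 1 set of peaks per library. The deposited fold is a ratio of summit fragments to local background, the authors' −log10 p and −log10 q belong to the summit, and the deposited score is 10 times −log10 q, cut to a whole number, in 99.97% to 100% of the peaks of a list. Peak ends and summit offsets are the authors' positions.

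Computed here, with SciPy 1.17.1, NumPy 2.4.6 and pandas 2.3.3 in Python 3.11.15 (plots in Matplotlib 3.10.9), were the fragments and local background of each summit, from a fold of fragments plus 1 over background plus 1 and a Poisson p. They returned −log10 p within 0.001 for 100% of peaks, and the steps were tested on simulated data. Sites are peaks of any libraries that overlap by 1 bp. Spans come from the RefSeq table of GRCh38.p14. No expression was measured, and no test was made. Depth is known only through these fragments, an estimated 449.8 to 779.7 bp apart over the genome. Few fragments mean low precision.

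The members and gene lists were chosen with earlier results of these data known. Members were named if a site differed between groups, if they were called in at least 2 groups, or as GADD45GIP1 and DAP3, which gave 21 genes. MRPL4, the members without a shared site and those at the window's limit were named after their values were seen, like the members without a peak. Library numbers follow the order of deposit. Alternatives were other windows, a stricter q, lists of equal length, low background only, peak overlap, shared sites and each library left out.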

Additional observations from a re-analysis of the deposited data

How the results depend on the processing

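No paired analysis was possible because library numbers follow the order of deposit only. Counts of members below are in the order PPARα+ERα, PPARα+ERβ and PPARα. Called members numbered 14, 9 and 16 (all genes 25.4%, 24.6% and 30.6%). With −log10 q of 3 or more PPARα+ERα had 9, and with lists of equal length 8 (all genes 18.7% for the latter). With low local background only, the groups had 8, 2 and 2 (all genes 20.0%, 6.21% and 6.01%). At the same site PPARα+ERα had 7 (all genes 17.8%). With a 10 kb window PPARα+ERβ had 17 and PPARα had 28 (all genes 30.5% and 38.1%). With each library left out the ranges were 20 to 28, 14 to 14, and 19 to 26.

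PPARα+ERα without PPARα, 8 members (all genes 5.39%), became 5 with a 1 kb window (all genes 4.82%) and 5 with a 10 kb window (6.18%). The count was 5 at −log10 q of 3 or more, with 9 to 14 when a library was left out. PPARα without PPARα+ERα, 7 members (all genes 7.78%), became 4 with a 1 kb window (all genes 7.04%). The count was 1 with low background and 12 at the same site, with 8 to 10 when a library was left out. PPARα+ERβ without PPARα, 0 members (all genes 1.09%), became 1 with lists of equal length (2.93%) and 1 at the same site (4.37%). With a library left out the count was 0 to 2. PPARα without PPARα+ERβ, 3 members (all genes 3.2%), became 5 at −log10 q of 3 or more and 1 with low background (0.669%). With a library left out the count was 5 to 9. PPARα+ERα without PPARα+ERβ, 8 members (all genes 6.4%), became 5 with a 1 kb window (5.74%) and with lists of equal length (5.1%). The count was also 5 at −log10 q of 3 or more and at the same site (16.5%). With a library left out it was 8 to 17. PPARα+ERβ without PPARα+ERα, 1 member (all genes 5.19%), became 4 with a 10 kb window (6.1%) and 3 with lists of equal length (6.58%). The count was 0 with low background (1.14%) and 8 at the same site (19.0%). At −log10 q of 3 or more it was 3, with 1 to 4 when a library was left out. All other alternatives stayed within 1.5 times the reported count, among them the overlap of a peak with the window in place of its summit. For these comparisons, no share of all genes is given at −log10 q of 3 or more or with a library left out. Some of these moves were also seen over all genes. PPARα without PPARα+ERα was 7.78% of all genes, 1.51% with low background and 27.2% at the same site. Other moves were not. PPARα+ERα without PPARα was 5.39% of all genes, 6.18% with a 10 kb window and 17.2% at the same site. The causes were not tested. Counts this small, on stacks of few fragments in PPARα+ERα, limit what a difference of a few members can show.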

Other observations

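Peaks of different libraries often began or ended at exactly the same base. Of the 35 member sites with peaks of 2 or more libraries, 28 (80.0%) had the same first or last base in every such library, and 14 (40.0%) had the same summit base. Over all 36044 such sites on chromosomes 1 to 22 the shares were 79.1% and 29.3%. At DAP3 the start and the summit were the same base in both PPARα+ERβ and both PPARα libraries.

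Local background was nearly the same in different libraries at the same place. At the 18 summit bases of members that libraries share, the background relative to the lowest of its list differed between those libraries by a median ratio of 1.01 and by up to 5% at 17 of them. Over 18960 shared summits the median ratio was 1.01, and 95.4% were within 5%.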
